A study of Mus musculus with 6 samples.

Results

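The genes described here encode the machinery of hepatic de novo lipogenesis, the conversion of cytosolic citrate and acetate into fatty acids, and were followed in refed livers with and without the G protein-coupled receptor Gpr146. The set was chosen by name, with earlier results of these data known. It comprises 10 genes: Slc25a1, Acly, Acss2, Acaca, Acacb, Fasn, Me1, Elovl6, Scd1 and Thrsp. All 10 had 1 probe set each with a single gene symbol, among 22180 genes named in this way, and all 10 lay above the signal filter that left 11090 genes for testing. Livers came from 6 male C57BL/6J mice aged 24 weeks and kept on chow, 3 whole-body Gpr146 knockouts (KO) and 3 wild-type (WT) littermates, which share no other allele or agent in the labels. Every animal was fasted for 16 hours and then refed for 6 hours, each liver was hybridised to 1 array, and no fasted or continuously fed group was part of these samples. Because the receptor was deleted in the whole body, the comparison does not separate its loss in liver from its loss elsewhere.

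In this pathway citrate leaves the mitochondrion, is split to acetyl-CoA in the cytosol, and is carboxylated to malonyl-CoA, from which fatty acid synthase builds palmitate with electrons from NADPH. Elongase and desaturase steps then turn palmitate into stearate and oleate. After a meal, insulin acting through the transcription factor SREBP1 and glucose acting through ChREBP (gene Mlxipl) raise the transcription of most of these genes in liver, and refeeding after a fast is the classical setting in which they are strongly induced.

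Arrays had medians of 2.67 to 2.73 on the log2 scale, and any 2 of them correlated at 0.983 to 0.988 over all probe sets. The hepatocyte gene Alb was at 11.92 ± 0.02 in WT and 11.91 ± 0.01 in KO (log2 mean ± SD, n = 3 each). Gpr146 itself was at 5.72 ± 0.21 and 4.25 ± 0.37, with every KO mouse below every WT mouse (limma adjusted p = 0.0702). Gpr146 passed when WT mouse 3 was left out (0.0268), with limma's trended robust variance (0.0272) and when arrays were centred on their medians (0.0204), and its adjusted p reached 0.268 among the other alternatives. The deleted part of the gene is not stated in the labels, nor whether the probes lie in it.

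The comparison of KO with WT asks whether the refed liver carries a different amount of lipogenic transcripts when the receptor is absent. With limma, 0 of the 10 genes passed an adjusted p under 0.05, a rule that called 4 of 11090 genes, or 0.0361%. Differences (KO minus WT, log2) were below 0 for 9 of the 10, against 42.3% of all tested genes, and their median was -0.16 against 0.03 over all tested genes. Leaving out WT mouse 2 or KO mouse 2 moved that median to -0.09, and leaving out WT mouse 1 to -0.27. At an unadjusted p under 0.05 there were 2, Acly and Acss2, both with lower values in KO, where 2.98% of all tested genes met that rule in that direction. The same 2 were the members in which KO and WT did not overlap, with every KO mouse below every WT mouse, which held for 5.16% of tested genes. The limma 95% interval included 0 for the other 8. In whole liver tissue, fewer cells of a type and less RNA per cell cannot be told apart.

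**Figure D1:**
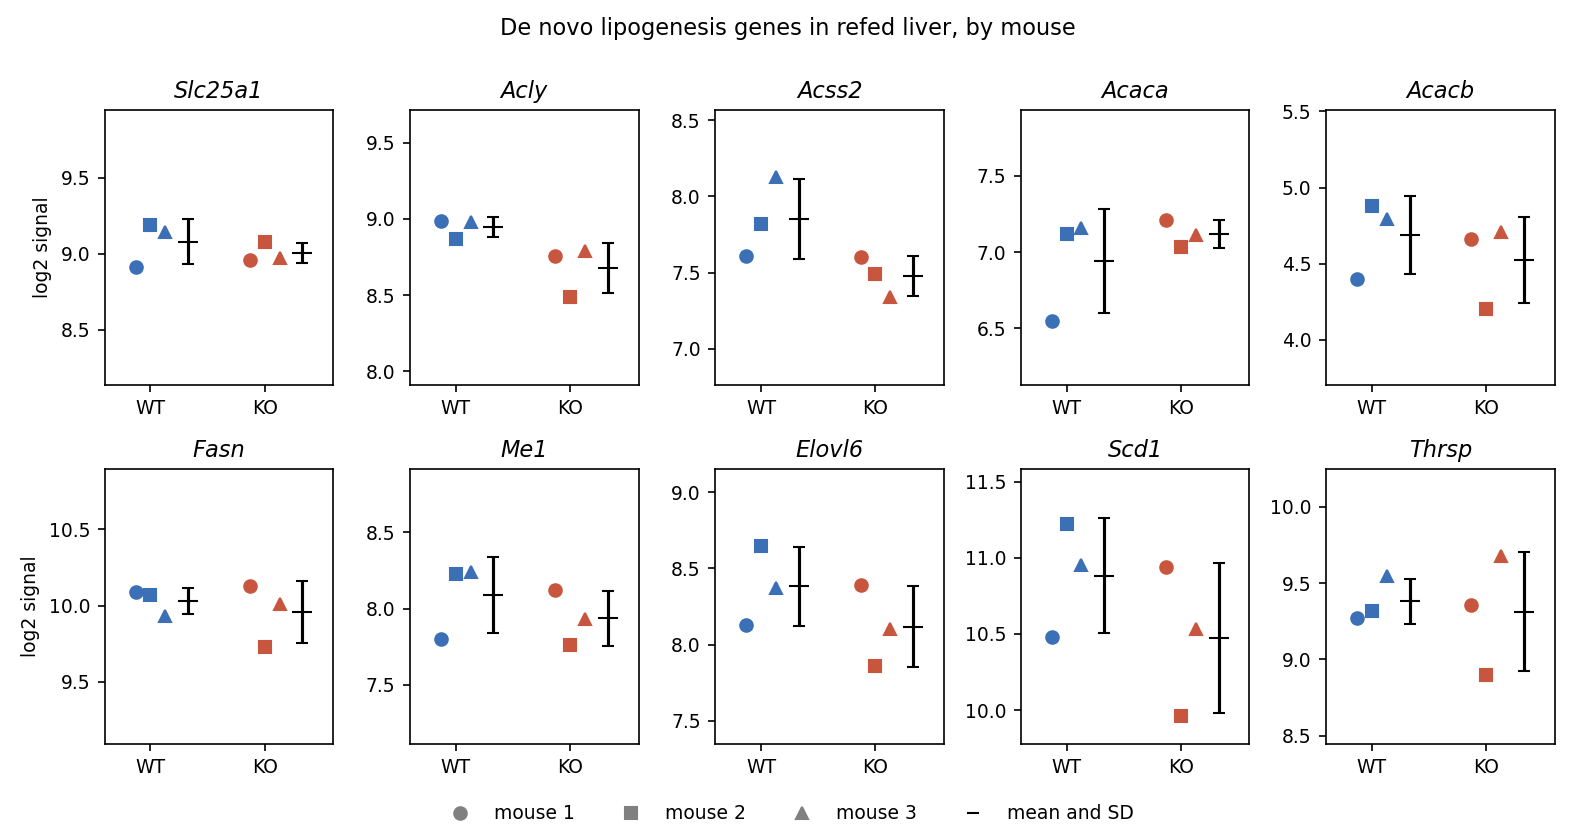
Log2 signal of the 10 lipogenesis genes in each mouse (WT blue, KO red; circle, square and triangle are mouse 1, 2 and 3 of a group, which are not paired). Black marks give the mean and SD of 3 mice, and every panel spans the same log2 range around its own mean. Only the panels of Acly and Acss2 show groups that do not overlap.

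The genes that supply cytosolic acetyl-CoA held both members with separated groups. Acly, ATP citrate lyase, splits exported citrate into acetyl-CoA and oxaloacetate. On the log2 scale, and in the order of mouse number used throughout, it read 8.99, 8.87 and 8.98 in WT livers and 8.76, 8.49 and 8.79 in KO livers. The lowest WT mouse was thus just above the highest KO mouse, and KO mouse 2 was the lowest of all. The difference was -0.26 ± 0.11 (SE; 95% interval -0.51 to -0.02), a signal 1.20-fold higher in WT, with an unadjusted limma p of 0.0394 and an adjusted p of 0.516. The exact two-sided permutation p was 0.1, the smallest that 3 against 3 mice allow. Leaving out KO mouse 2 gave -0.17, WT mouse 1 -0.24 and WT mouse 3 -0.25, none of them with an unadjusted p under 0.05 in limma.

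Acss2, the cytosolic acetyl-CoA synthetase that activates acetate, measured 7.61, 7.82 and 8.13 in WT and 7.60, 7.49 and 7.34 in KO. WT mouse 1 and KO mouse 1 were nearly level, so the groups were separated by a narrow margin, and the highest reading came from WT mouse 3. The difference was -0.38 ± 0.14 (SE; 95% interval -0.70 to -0.05), a signal 1.30-fold higher in WT (limma unadjusted p = 0.0268, adjusted p = 0.478, exact permutation p = 0.1). Leaving out WT mouse 3 gave -0.24, KO mouse 3 -0.31 and KO mouse 2 -0.385, none of them with an unadjusted p under 0.05 in limma.

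Slc25a1, the mitochondrial citrate carrier that delivers the substrate of Acly, did not share this separation. Its values were 8.91, 9.19 and 9.14 in WT and 8.96, 9.08 and 8.97 in KO. WT mouse 1 was below all 3 KO mice and the other two WT mice were above them. At -0.08 ± 0.10 (SE; 95% interval -0.32 to 0.16; limma adjusted p = 0.868) the difference was smaller than the SD of 0.15 among WT mice. Omitting WT mouse 1 gave -0.16 for Slc25a1, and omitting WT mouse 2 gave -0.02.

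The 2 acetyl-CoA carboxylases differed from WT in opposite directions, neither beyond the error. Acaca makes the cytosolic malonyl-CoA that is used for synthesis. It read 6.55, 7.12 and 7.16 in WT and 7.21, 7.03 and 7.11 in KO, so that 5 mice lay within 0.18 of each other and WT mouse 1 was well below them. The difference of 0.17 ± 0.16 (SE; 95% interval -0.20 to 0.54; adjusted p = 0.787), the single positive one among the 10 genes, was -0.02 without WT mouse 1. Acacb encodes the isoform at the mitochondrial surface, whose malonyl-CoA restrains fatty acid import for oxidation. It read 4.40, 4.88 and 4.79 in WT and 4.66, 4.20 and 4.71 in KO, with KO mouse 2 and WT mouse 1 at the bottom. The difference was -0.17 ± 0.17 (SE; 95% interval -0.56 to 0.22; adjusted p = 0.809), and without KO mouse 2 it was -0.005.

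Fasn, the multifunctional synthase that builds palmitate, was close in the 2 genotypes. WT livers read 10.09, 10.07 and 9.93, and KO livers 10.13, 9.73 and 10.01. KO mouse 1 had the highest value of the 6 and KO mouse 2 the lowest. The difference was -0.08 ± 0.12 (SE; 95% interval -0.35 to 0.20; limma adjusted p = 0.891), so a difference in either direction was not resolved. Without KO mouse 2 it was 0.04. Me1, cytosolic malic enzyme, which produces NADPH for the synthase, read 7.80, 8.23 and 8.24 in WT and 8.12, 7.76 and 7.93 in KO. Its lowest values came from 1 mouse of each genotype, WT mouse 1 and KO mouse 2, and the difference was -0.15 ± 0.15 (SE; 95% interval -0.49 to 0.18; adjusted p = 0.791). Omitting WT mouse 1 gave -0.30 for Me1, and omitting KO mouse 2 gave -0.065.

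Elongation and desaturation genes had differences below 0 and groups that overlapped. Elovl6, the elongase that takes palmitate to stearate, read 8.13, 8.65 and 8.37 in WT and 8.39, 7.86 and 8.10 in KO, a difference of -0.27 ± 0.17 (SE; 95% interval -0.65 to 0.12; adjusted p = 0.668). Scd1, the desaturase that makes oleate from stearate, read 10.48, 11.22 and 10.95 in WT and 10.94, 9.96 and 10.53 in KO. KO mouse 2 was the lowest animal for both genes, whereas KO mouse 1 was above 2 WT mice for Elovl6 and above 1 for Scd1. For Scd1 the difference of -0.41 ± 0.26 (SE; 95% interval -0.99 to 0.18; adjusted p = 0.668) was the largest in size of the 10 and also the least precise. Without KO mouse 2, Scd1 was at -0.15 and Elovl6 at -0.14, and without WT mouse 1 they were at -0.61 and -0.39.

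Thrsp, a small nuclear and cytosolic protein that promotes lipogenesis and responds to thyroid hormone and carbohydrate, had its extremes in the KO group. It read 9.27, 9.32 and 9.55 in WT and 9.36, 8.90 and 9.68 in KO, so KO mouse 2 was the lowest and KO mouse 3 the highest of the 6. The SD was 0.39 in KO and 0.15 in WT, and the difference was -0.07 ± 0.18 (SE; 95% interval -0.48 to 0.35; adjusted p = 0.938). It was 0.14 without KO mouse 2 and 0.02 without WT mouse 3.

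**Figure D2:**
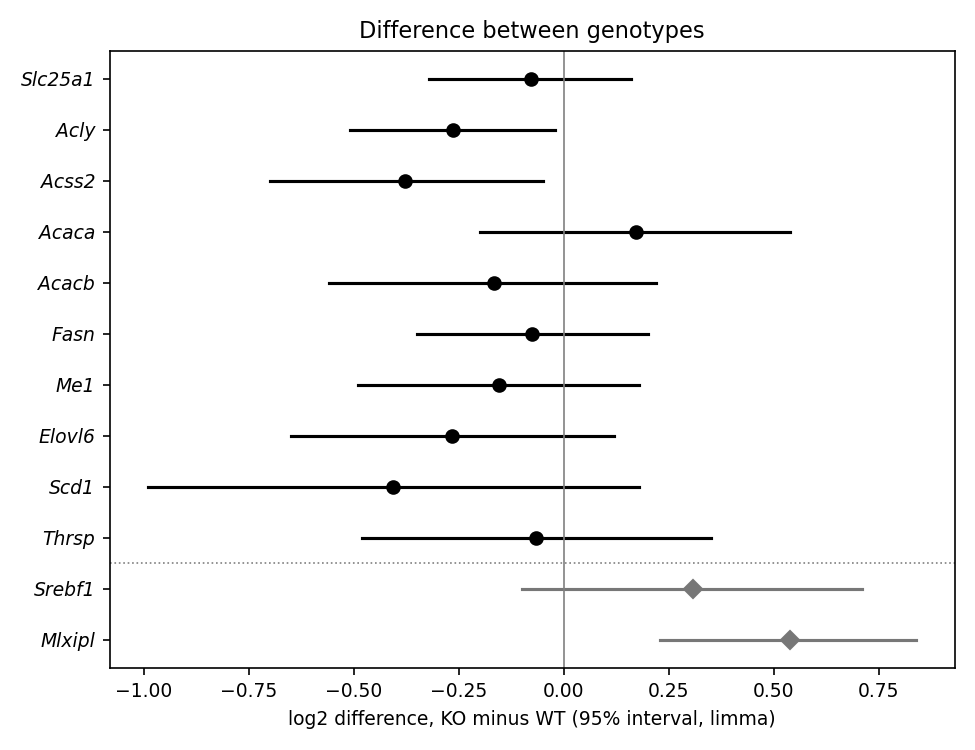
Log2 difference, KO minus WT, with its limma 95% interval from 3 mice per genotype (horizontal axis) for the 10 lipogenesis genes (circles) and the regulators Srebf1 and Mlxipl (diamonds, below the dotted line). Among the 10, only the intervals of Acly and Acss2 exclude 0, before adjustment for the 11090 genes tested, and the point of Acaca is the only one right of 0.

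Of the 10 genes, 9 (all but Scd1) matched promoter entries from RefSeq's annotation of build GRCm38.p6, at 10 start sites in all, since Me1 has 2. The 250 bases before the start are shown for the 2 genes whose groups were separated and for Fasn, whose difference was near 0, on the strand of the gene and read 5′ to 3′. Capitals mark any match to 5 motifs searched on both strands: the sterol regulatory element in the spelling TCACNCCAC, the E-box CACGTG, the NF-Y box CCAAT, the Sp1 box GGGCGG, and the LXR repeat, a pair of AGGTCA sites with 4 bases between them.
Acly (chr11:100528001-100528250, minus strand): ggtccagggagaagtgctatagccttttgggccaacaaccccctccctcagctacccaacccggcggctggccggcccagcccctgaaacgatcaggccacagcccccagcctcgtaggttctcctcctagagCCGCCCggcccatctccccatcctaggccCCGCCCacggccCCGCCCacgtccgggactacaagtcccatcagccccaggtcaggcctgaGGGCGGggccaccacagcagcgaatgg
Acss2 (chr2:155517793-155518042, plus strand): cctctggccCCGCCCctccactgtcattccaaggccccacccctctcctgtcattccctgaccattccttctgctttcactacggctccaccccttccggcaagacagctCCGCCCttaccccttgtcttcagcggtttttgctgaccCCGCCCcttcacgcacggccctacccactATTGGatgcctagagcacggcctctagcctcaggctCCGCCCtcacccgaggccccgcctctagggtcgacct
Fasn (chr11:120824548-120824797, minus strand): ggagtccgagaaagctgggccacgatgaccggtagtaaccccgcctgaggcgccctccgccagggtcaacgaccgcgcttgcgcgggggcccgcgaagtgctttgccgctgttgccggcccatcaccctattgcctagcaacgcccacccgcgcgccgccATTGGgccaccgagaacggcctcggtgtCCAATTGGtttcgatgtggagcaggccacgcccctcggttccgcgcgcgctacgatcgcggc
Acly and Acss2 each carried 4 Sp1 boxes, Acss2 also 1 NF-Y box, and Fasn 3 NF-Y boxes of which 2 overlap, with no Sp1 box in this spelling. Over all 10 windows, the NF-Y box was in 6 (33.8% of 32851 promoter windows of the same length) and the Sp1 box in 4 (32.7%). The E-box was in 1, that of Slc25a1 (6.02%). The sterol element (1.05% of all windows) and the LXR repeat (0.0152%) were in 0 of 10. The 2 windows of Me1 differed, with Sp1 boxes in 1 and the NF-Y box in the other. Which annotated start sites are used in these livers was not tested. A match is a description of letters, and the absence of one says nothing about binding outside this window or in another spelling.

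Variation between mice was shared across the lipogenic genes and did not follow genotype alone. KO mouse 2 had the lowest value of the 6 in 7 of the 10 genes, whereas it was lowest in 12.4% of all tested genes. WT mouse 1 was the lowest of its group in 8 of the 10, against 45.1% of tested genes, and KO mouse 2 the lowest of its group in 8, against 32.5%. With each gene centred on its mean over the 6 mice, the average of the 10 was -0.12, 0.19 and 0.18 in the WT livers and 0.07, -0.29 and -0.03 in the KO livers, by mouse number. KO mice 1 and 3 therefore lay between the extremes of the WT group. The same average over all tested genes stayed between -0.05 and 0.04 in every mouse. Without KO mouse 2, 7 of the 10 differences were below 0 (42.7% of all tested genes), and without WT mouse 1 all 10 were (47.6%). Genes at an unadjusted p under 0.05 numbered 0 when KO mouse 2 or WT mouse 3 was left out and 1 when KO mouse 3 was. Leaving out WT mouse 2, WT mouse 1 or KO mouse 1 gave 2, 3 and 4. Over all 11090 tested genes, 771 to 1023 met the same rule, in either direction, with 1 mouse left out.

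**Figure D3:**
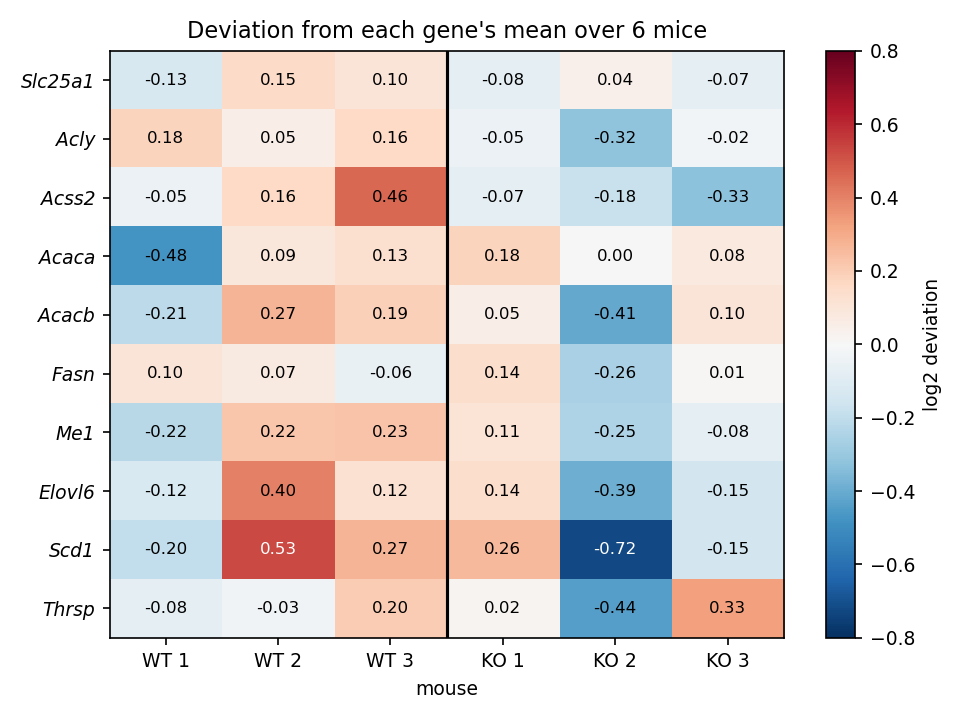
Deviation of each lipogenesis gene (rows) from its own mean over the 6 mice, in log2 units, by mouse (columns; WT left and KO right of the black line). Red is above and blue below the gene's mean; the column of KO mouse 2 holds the lowest value of 7 rows, Scd1 at -0.72 the farthest, and the column of WT mouse 1 is below 0 in 8.

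Among the 11080 tested genes outside the set, the 5 whose values over the 6 arrays were most like the average of the 10 were Endod1 (Pearson r = 0.991), Tab3 (0.977), Slbp (0.973), Slc2a5 (0.972) and Cert1 (0.970). These were selected as the highest of all, so the r values are a description of 6 points and carry no test. Slc2a5 encodes a fructose transporter and Cert1 the ceramide transfer protein. KO mouse 2 was the lowest array in each of the 5, which largely follows from choosing genes that match the average. Slbp, for example, read 4.69, 5.07 and 5.09 in WT and 4.85, 4.58 and 4.81 in KO.

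The 2 main transcription factors of the pathway had differences above 0, neither past the adjusted threshold. Srebf1, which encodes SREBP1, read 7.24, 7.26 and 6.79 in WT and 7.40, 7.11 and 7.71 in KO, a difference of 0.31 ± 0.18 (SE; adjusted p = 0.635), or 0.16 without WT mouse 3 or KO mouse 3. Mlxipl read 8.55, 8.82 and 8.40 in WT and 9.30, 9.0 and 9.09 in KO. Every KO mouse was above every WT mouse for Mlxipl, at 0.54 ± 0.13 (SE; unadjusted p = 0.00324, adjusted p = 0.315), while 9 of 10 lipogenic genes had differences below 0. KO mouse 2, lowest for most of the enzymes, was also the lowest KO mouse for both regulators, but its Mlxipl signal was still above all WT mice. Of the 16 regulators tested, 2 had an unadjusted p under 0.05 with higher values in KO (6.16% of all tested genes) and 2 with lower (2.98%). After adjustment 0 passed, and the list median was 0.07. The others among the 3 of smallest p were Onecut1, a hepatocyte transcription factor, at -1.04 ± 0.26 (SE), and Ppargc1b, a coactivator of SREBP1, at 0.36 ± 0.12. Ppargc1b lay near the signal filter, at 3.22 in WT and 3.58 in KO, with overlapping groups. Its difference was 0.145 with a pseudocount of 16.

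Around the pathway, 0 genes passed after adjustment in limma in any of the 7 surrounding lists. Of 101 genes, 3 had an unadjusted p under 0.05 with higher values in KO (6.16% of all tested genes). Another 17 met that rule with lower values in KO (2.98% of all tested genes), 13 of the 17 in cholesterol synthesis. NADPH supply, the pentose phosphate and related dehydrogenase genes, had a median of -0.06 over 9 genes with 0 at an unadjusted p under 0.05. Its genes of smallest p were Mthfd1 at -0.15, Taldo1 at 0.12 and Pgd, 6-phosphogluconate dehydrogenase, at -0.19 (-0.075 without WT mouse 2). Carbon supply from glucose and fructose had a median of 0.02 over 16 genes. There Pdha1, an E1 subunit gene of pyruvate dehydrogenase, was at -0.24 ± 0.10 (SE; unadjusted p = 0.0411, adjusted p = 0.522), Mpc1, part of the mitochondrial pyruvate carrier, at -0.17 (-0.11 without WT mouse 2) and Pdhb at 0.14. In Pdha1 and Mpc1 every KO mouse was below every WT mouse, which held for 5.16% of all tested genes. Some genes of these lists were not analysed here.

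A list of genes around the carboxylase and synthase proteins, not all of them regulators, had a median of -0.02 over 14 genes. Trib1, a pseudokinase gene, was at -0.99 ± 0.40 (SE; adjusted p = 0.509), with WT readings of 7.35, 7.92 and 5.99 against 6.05, 6.15 and 6.08 in KO. WT mouse 3 was below all KO mice, and without it the difference was -1.54 with a limma adjusted p of 0.00691. Prkag2 and Prkab2, regulatory subunits of AMP-activated kinase, were at 0.30 and -0.22. Other desaturases and elongases had a median of -0.06 over 14 genes, with Elovl3 at 0.70 ± 0.26 (SE; adjusted p = 0.469), Elovl5 at -0.25 and Hsd17b12 at -0.18. Elovl3 was at 0.45 and Elovl5 at -0.13 without WT mouse 2, and Hsd17b12 at -0.09 without WT mouse 3. Triglyceride and phospholipid assembly, which uses the fatty acids made, had a median of 0.01 over 14 genes and 0 at an unadjusted p under 0.05. Pcyt2, Gpat3 and Gpam were at 0.17, -0.35 and -0.19 there. Gpat3 was at -0.63 without WT mouse 3, and without WT mouse 2 Gpat3 was at -0.11 and Gpam at -0.08.

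Cholesterol synthesis, which starts from the same cytosolic acetyl-CoA, stood beside the lipogenic genes with larger differences and another order of mice. In that list 17 of 18 differences were below 0 (42.3% of all tested genes), with a median of -0.52. An unadjusted p under 0.05 was found for 13, all lower (2.98% of all tested genes), and 0 passed after adjustment. Pmvk, Hsd17b7 and Lss, the 3 of smallest p, were at -0.73, -0.96 and -0.66. The average of the centred cholesterol genes was 0.20, 0.23 and 0.33 in WT and -0.12, -0.06 and -0.59 in KO, so KO mouse 3 was the lowest there, while KO mouse 2 was the lowest for lipogenesis. The difference between the 2 lists was not tested.

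**Figure D4:**
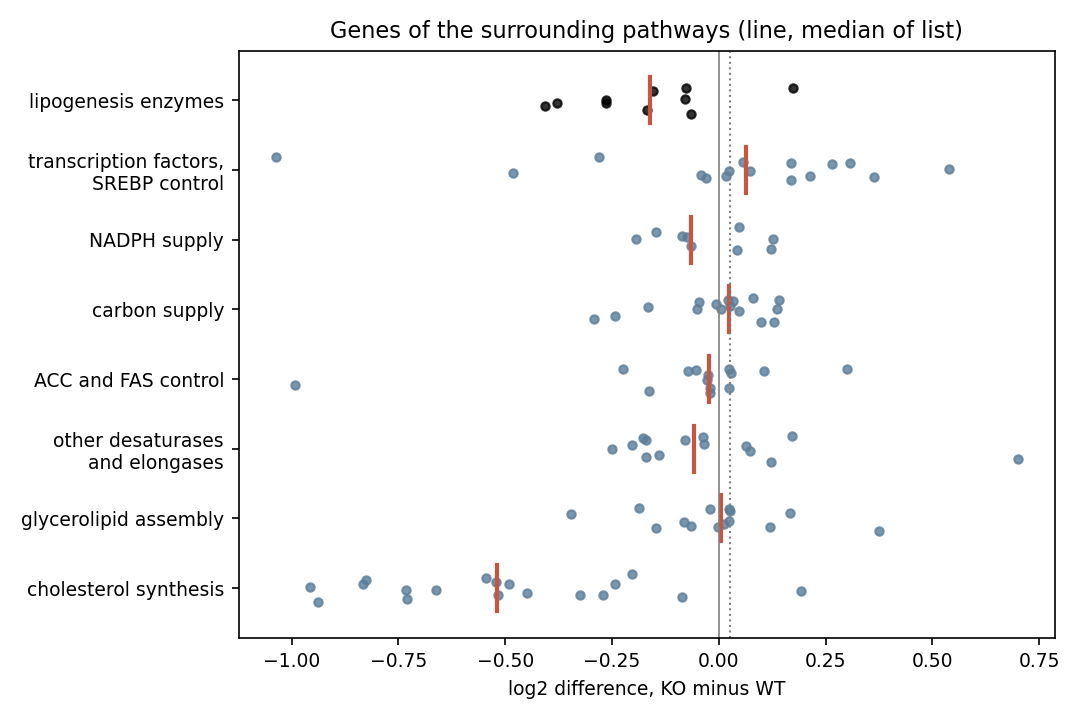
Log2 difference, KO minus WT (horizontal axis), of each tested gene in the lipogenesis set (black) and 7 surrounding lists (blue; vertical scatter within a row has no meaning). Red lines are list medians, the solid grey line is 0 and the dotted one the median of all tested genes, 0.03. The lipogenesis median of -0.16 lies between that of cholesterol synthesis, -0.52, and those of the other 6 lists, -0.06 to 0.07.

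Several lipogenic genes are also active in fat cells, so markers of fat and other cell types were set beside them. Adipoq, Lep and Retn, which define fat cells, were below the signal filter, with Adipoq at 2.12 ± 0.09 in WT and 2.13 ± 0.06 in KO (log2 mean ± SD, n = 3 each). The 6 fat cell markers that were tested summed to 31.1 to 32.9 log2 units in WT and 30.2 to 32.7 in KO, with a median difference of -0.02 and 0 of 6 at an unadjusted p under 0.05. Of these, Cidec, a lipid droplet gene that hepatocytes also express, read 6.71, 7.14 and 5.99 in WT and 6.70, 5.47 and 5.65 in KO, so KO mouse 2 was the lowest. Fabp4 and Plin1 were also lowest in that mouse, at 3.69 and 2.86. Nnat, in contrast, was highest there, at 3.45, Trarg1 second highest, at 3.30, and Car3 at 11.39, level with WT mouse 3. Plin1, Nnat and Trarg1 lay near the signal filter of 2.99, so their order among mice carries little weight. Car3 alone put means of 11.52 in WT and 11.43 in KO into the sums of log2 values. Those sums therefore do not measure an amount of fat cells. The part of the fat cell markers in the low lipogenic values of KO mouse 2 was not tested. The 9 hepatocyte markers summed to 99.2 to 99.3 in WT and 98.9 to 99.7 in KO. WT mouse 1, low in 8 lipogenic genes, had the highest centred average of Kupffer cell markers, at 0.49. KO mouse 3 was close to it, at 0.39, and the other mice were at -0.36 to -0.05. For stellate cell markers WT mouse 1 was the lowest, at -0.30 against -0.15 to 0.24. Marco, a Kupffer cell receptor, read 6.86 in WT mouse 1 and 3.98 to 5.28 in the others, and Timd4 and Folr2 were also highest there. Clec4f, Vsig4, Adgre1, Cd5l and Csf1r were instead highest in KO mouse 3. The part of these cells in the lipogenic values of WT mouse 1 was not tested. Median differences between genotypes were 0.16 for Kupffer cell, -0.004 for sinusoidal endothelial, -0.02 for stellate cell and 0.28 for bile duct markers, the last from 2 genes. Of the 40 markers tested over the 6 lists, Sox9 alone had an unadjusted p under 0.05, at 0.41 ± 0.14 (SE). With higher values in KO, 6.16% of all tested genes met that rule.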

How the data were processed

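Per the labels' protocols, Trizol was used to extract liver RNA, and biotinylated cRNA was made for an Affymetrix whole-transcript array. The authors deposited 1 table of log2 values, 41345 probe sets by 6 mice; how they were summarised and normalized was not stated. A log2 scale follows from array maxima of 12.1 to 12.2, above 11.1, the natural log of a 16-bit reading.

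Gene symbols came from the platform annotation and were updated by Entrez number in a GRCm38.p6 gene table; 23521 carried 1 symbol (23328 in that table), 1814 several and 16010 none. For each gene the probe set of highest mean was kept, and genes in the upper 50% of mean signal (log2 of 2.99 or more) were tested with limma 3.58.1 in R 4.3.3 (lmFit, eBayes, two-sided, Benjamini-Hochberg over 11090 genes). The fit was tested on simulated data in which each gene varied independently and planted changes were larger than those of the members. That test does not cover smaller differences or variation that genes share within a mouse. Each member was also compared by an exact permutation test. The number of mice limits precision: the median SE was 0.11. The labels name no batch, and levels of different probe sets were not compared.

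The members and lists were chosen with earlier results of these data known. Named genes were all members, Srebf1, Mlxipl, the 3 of smallest p in each surrounding list and the 5 closest in pattern; Gpr146 and Alb were checks. Genes beyond that rule were named after their values were seen. Alternatives changed the filter, probe set choice, normalization, variance model, array weights, a pseudocount of 16, the replicate block and each mouse in turn.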

Additional observations from a re-analysis of the deposited data

How the results depend on the processing

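Each of the 15 alternatives left the lipogenic genes at 0 calls in limma after adjustment over all genes, with adjusted p-values between 0.41 and 0.997; Acacb was not tested in the upper 25% of signal. The unadjusted count of 2 was the same in the 9 alternatives that kept all mice. Over all genes, 4 calls became 0 in the upper 25% of signal (567 at an unadjusted p under 0.05), 1 with the pseudocount and 1 with the replicate block, and 1 to 51 with a mouse left out (51 without WT mouse 3). The surrounding lists had 0 to 1 calls with a mouse left out, the 1 being Trib1 without WT mouse 3. Differences turned sign only with a mouse left out: Acaca ran from -0.023 to 0.281, Fasn from -0.164 to 0.036 and Thrsp from -0.246 to 0.14. Quantile normalization changed the balance of all genes at an unadjusted p under 0.05 from 683 higher and 330 lower to 494 and 584. It left 9 of 10 lipogenic differences below 0 (52.9% of all genes), with a median of -0.21. Median centring gave 508 and 355 over all genes and a lipogenic median of -0.17. Same-numbered mice did not deviate together (correlations of 0.06, -0.19 and 0.15), and the labels tie no number to a litter, so the mice are not treated as paired. With the replicate block, 2 lipogenic genes kept an unadjusted p under 0.05.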
